A study of Arabis alpina with 27 samples.

Results

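Indolic glucosinolates are sulfur-containing defence compounds of the Brassicales that are built from tryptophan. In *Arabidopsis thaliana*, CYP79B2 and CYP79B3 convert tryptophan to indole-3-acetaldoxime, and CYP83B1 oxidises the aldoxime. Enzymes largely shared with the aliphatic pathway add sulfur, glucose and sulfate, and the CYP81F enzymes then hydroxylate the indole ring. MYB34, MYB51 and MYB122 activate these genes. Indole-3-acetaldoxime is also a precursor of camalexin and can feed into auxin, so the branch shares its first intermediate with other pathways.

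The genes described here are the *A. alpina* homologs of 10 *A. thaliana* loci, namely *CYP79B2* (AT4G39950), *CYP79B3* (AT2G22330), *CYP83B1* (AT4G31500), *CYP81F1* (AT4G37430), *CYP81F2* (AT5G57220), *CYP81F3* (AT4G37400), *CYP81F4* (AT4G37410), *MYB34* (AT5G60890), *MYB51* (AT1G18570) and *MYB122* (AT1G74080). They were chosen by the homolog paired with each gene of the count data. A homolog was given for 15955 of 21641 genes, and 8 of the 10 loci had 1 gene each. The genes are Aa_G486300 for *CYP79B2*, Aa_G407280 for *CYP79B3*, Aa_G127450 for *CYP83B1*, Aa_G306090 for *CYP81F1*, Aa_G69090 for *CYP81F2*, Aa_G672590 for *CYP81F3*, Aa_G693340 for *MYB34* and Aa_G271510 for *MYB51*. By their locus codes *MYB51* lies on chromosome 1, *MYB34* on 3, *CYP79B3* on 6, *CYP79B2*, *CYP83B1* and *CYP81F3* on 7, and *CYP81F1* and *CYP81F2* on 8. *CYP81F4* and *MYB122* were not analysed here. Genes carry the symbol of their homolog below, and each role given is the one known in *A. thaliana*.

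The study asked how long cold prepares the stem for adventitious rooting. All plants were of the accession Pajares, and a library held main stem pieces of 10 pooled plants, cut below the rosette and freed of axillary buds. Plants grew for 8 weeks in long days (LD, 16 h light at 20 °C and 8 h dark at 18 °C) and were sampled then (0w), after a stay at 4 °C in the same day length that lasted 4 (4w) or 8 (8w) weeks, or was prolonged to 12 (12w), to 16 (16w) or to 21 weeks (21w), or once the 3 longest stays had been followed by 5 days in the LD greenhouse (12w+5dLD, 16w+5dLD and 21w+5dLD). Each of the 9 groups had 3 libraries, the 0w libraries served every comparison with 0w, and no group of the same age was kept warm, so the length of cold and the age of the stem cannot be told apart.

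The 27 libraries summed to between 16.1 and 22.5 M counts, with a median of 19.2 M (M, mega). Levels are given in CPM, counts scaled to a library of 1 M after TMM normalisation, which corrects for depth but not for gene length, so that a level is compared between groups and not between genes. In these bulk stems fewer cells of a type and less RNA per cell cannot be told apart. Xylem markers marked the stem at 0w, where the summed level of *CESA4*, *CESA7* and *CESA8* was 1812 to 2326 CPM per library, against 0 to 87.9 CPM at 12w. *AG*, the one marker of other organs that was measured of 7 listed, was at 3.76 CPM or less in all libraries. The library labelled 21w+5dLD replicate 3 stood apart. Over the 1000 most variable genes it correlated at r = 0.340 with the mean of the other libraries of its group and at 0.540 with the 21w mean, so results that turn on it are given with and without it.

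All 8 genes passed the filter on low counts, and 4 of them, *CYP79B2*, *CYP83B1*, *CYP81F1* and *CYP81F3*, were above 0 in all 27 libraries. *CYP79B3* was at 0 in 10 libraries, *MYB34* in 4 and *MYB51* in 1. *CYP81F2* was at 0 in 24 libraries and passed the filter only through the 21w libraries, so that it had to differ there. How reads shared by close relatives, such as *CYP79B2* and *CYP79B3* or the *CYP81F* genes, were assigned is not given in the sources used, and the split between them is uncertain.

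**Figure D1:**
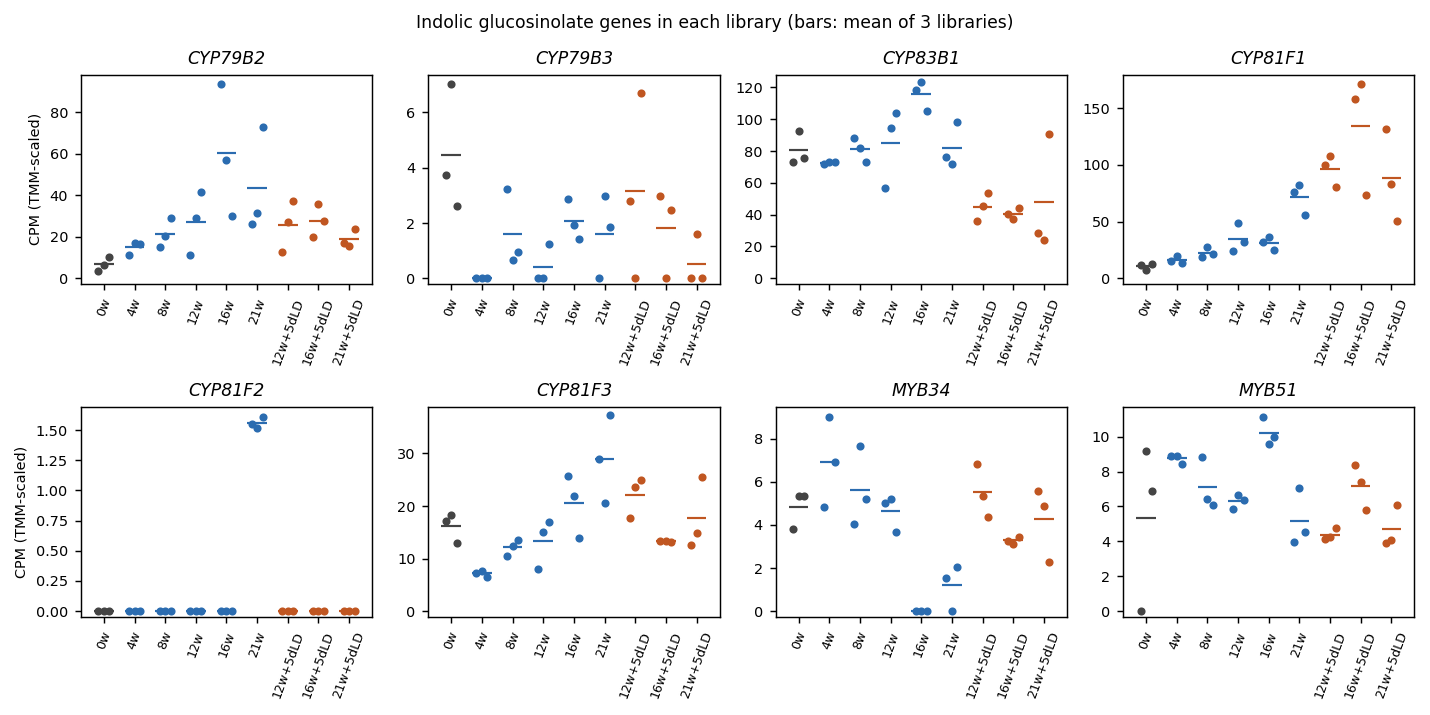
CPM after TMM scaling (y axis, linear, a separate scale for each gene) of the 8 genes in each of the 27 libraries (points) by group (x axis), with the mean of the 3 libraries as a bar. *CYP79B2* and *CYP81F1* lay above their 0w libraries in all 15 cold and all 9 returned libraries, *MYB34* was at 0 in all 16w libraries, and *CYP81F2* was above 0 in the 3 libraries of 21w.

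During cold, the genes of the branch did not all move one way. A gene is called here when its adjusted p is below 0.05 and its level differs at least 2-fold, among 19337 genes tested. *CYP81F2*, at 0 in all libraries outside 21w, could not be called in comparisons that leave out the 21w libraries. There the other 7 genes are to be read against the shares of all tested genes. After 4 weeks 0 of the 8 genes were higher than at 0w and 2 were lower, where 5.60% of all tested genes were called higher and 7.39% lower. After 8 weeks 2 were higher and 0 lower (6.26% and 9.11% of all tested genes), and after 12 weeks also 2 and 0 (7.07% and 9.38%). At 16w 2 were higher and 1 lower (7.07% and 10.2%), while 21w had 3 higher and 0 lower (5.14% and 7.14%), of which 1 is *CYP81F2*, tested only through its 21w libraries, so that 2 of the other 7 genes are to be read against these shares. *CYP79B2*, which forms the aldoxime, and *CYP81F1*, which hydroxylates the indole ring, were the genes called higher at 8w, 12w and 16w. From 4w to 16w the median log2 fold change of the 8 genes against 0w lay between 0.04 at 12w and 0.44 at 16w. *CYP81F2*, at 0 in all these libraries, entered it as 0. That of all tested genes lay between -0.02 and -0.01. The median of 0.44 at 21w counts *CYP81F2*, which had to differ there, and is not set against the others.

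*CYP79B2*, which makes the aldoxime, was called higher from 8w on. It was measured at 3.62, 6.47 and 10.2 CPM in the libraries of 0w, 11.2, 16.9 and 16.8 CPM in those of 4w, and 15.1, 20.4 and 29.2 CPM in those of 8w. Longer cold gave 11.2, 29.2 and 41.5 CPM at 12w, 93.7, 56.9 and 30.0 CPM at 16w, and 26.3, 31.7 and 72.8 CPM at 21w. All 15 cold libraries lay above the highest 0w library, while cold groups next to each other in order of their means overlapped. The log2 fold change against 0w was 1.14 ± 0.53 (SE, n = 3 per group) after 4 weeks, which was not called (edgeR adjusted p = 0.112), 1.67 ± 0.53 after 8 weeks (adjusted p = 0.0199), 2.01 ± 0.54 after 12 weeks (adjusted p = 0.00645), 3.15 ± 0.56 after 16 weeks (adjusted p = 0.000208) and 2.69 ± 0.55 after 21 weeks (adjusted p = 0.00109).

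The calls of *CYP79B2* at 16w and 21w held in all alternatives run, and the earlier ones did not. Leaving out replicate 1 of 0w, replicate 2 of 0w or replicate 3 of 8w ended the call at 8w (edgeR adjusted p = 0.097, 0.0619 and 0.0795), and a fit of only the groups compared ended that at 12w (adjusted p = 0.0526). Between 4w and 16w the level rose by 2.01 ± 0.54 on the log2 scale (adjusted p = 0.0303) with no overlap, but without any one of the 4w libraries, 16w replicate 1 or 16w replicate 2, and in a fit of those 2 groups, the call was lost (adjusted p = 0.0647 to 0.15).

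*CYP79B3*, which carries out the same reaction, was below its 0w level in most cold libraries. It was measured at 3.74, 7.02 and 2.61 CPM at 0w, at 0 in each library of 4w, at 3.24, 0.647 and 0.955 CPM at 8w and at 0, 0 and 1.25 CPM at 12w. Later libraries gave 2.87, 1.93 and 1.41 CPM (16w) and 0, 2.98 and 1.85 CPM (21w). No cold library reached the highest 0w library, and 12 of the 15 lay below the lowest one. With a floor of 3 counts per library the level at 4w was at least 26.7-fold lower than at 0w (edgeR adjusted p = 0.0332), a call lost without 0w replicate 1 or 2 or any one of the 4w libraries (adjusted p = 0.0503 to 0.0894). In all 3 libraries of 4w, 695 tested genes (3.59%) were at 0, and 37 of them had a mean of at least 1 CPM in each other group. Whether such zeros are failed estimates was not tested.

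*CYP83B1*, which commits the aldoxime to glucosinolates, was not called in any cold group. Its libraries gave 73.1, 92.7 and 75.7 CPM at 0w, 71.7, 72.9 and 73.0 CPM at 4w, and 88.3, 82.0 and 72.8 CPM at 8w. Longer cold gave 56.9, 94.2 and 104.0 CPM (12w), 118, 123 and 105 CPM (16w) and 76.1, 71.7 and 98.2 CPM (21w). The 16w libraries lay above those of 0w and of the other cold groups, but the log2 fold change against 0w of 0.52 ± 0.33 (n = 3 per group) was not called (edgeR adjusted p = 0.240). The other cold groups differed from 0w by -0.15 to 0.08 on the log2 scale.

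The ring hydroxylase genes each had a course of their own. *CYP81F1* was measured at 11.5, 7.43 and 12.4 CPM at 0w, 15.5, 20.1 and 13.5 CPM at 4w, and 18.8, 27.6 and 21.1 CPM at 8w. Longer cold gave 23.8, 49.0 and 31.6 CPM (12w), 32.3, 36.2 and 25.2 CPM (16w) and 75.8, 82.7 and 56.1 CPM (21w). All 15 cold libraries lay above those of 0w, and the 21w libraries lay above all libraries of shorter cold. The log2 fold change against 0w was 0.64 ± 0.34 after 4 weeks (edgeR adjusted p = 0.172), 1.11 ± 0.35 after 8 weeks (adjusted p = 0.0179), 1.74 ± 0.35 after 12 weeks (adjusted p = 0.0007), 1.58 ± 0.35 after 16 weeks (adjusted p = 0.00145) and 2.78 ± 0.36 after 21 weeks (adjusted p = 1.69e-05), with n = 3 per group. Without 0w replicate 2 or 8w replicate 2 the change at 8w was 0.91 or 0.93 and was not called (adjusted p = 0.0891 and 0.0739).

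*CYP81F3* fell early and had its highest mean at 21w. Its level was 17.1, 18.3 and 12.9 CPM at 0w and 7.32, 7.71 and 6.57 CPM at 4w, so that the groups did not overlap. The other groups in the cold gave 10.5, 12.4 and 13.6 CPM (8w), 7.99, 15.1 and 16.98 CPM (12w), 25.8, 21.9 and 13.9 CPM (16w), and 28.9, 20.6 and 37.2 CPM (21w). The change to 4w was -1.16 ± 0.30 on the log2 scale (n = 3 per group, edgeR adjusted p = 0.00544), and from 4w to 16w the level rose by 1.51 ± 0.30 (adjusted p = 0.00415). All 21w libraries lay above those of 0w, with a log2 fold change of 0.84 ± 0.29 that had an adjusted p of 0.037 but was under 2-fold. Without 21w replicate 2 it was 1.04 and was called (adjusted p = 0.0205).

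*CYP81F2*, whose product also hydroxylates the indole ring, was measured at 1.55, 1.52 and 1.61 CPM in the 21w libraries (33, 27 and 33 counts) and at 0 in the other 24. Its level at 21w was at least 10.2-fold higher than at 0w with a floor of 3 counts per library. Since the gene was tested only because of these libraries, the level is given as a description, with no test.

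Set against the mean of the 4 shorter stays, 21w had 3 of the 8 genes higher and 0 lower, with 3.17% of all tested genes higher and 1.56% lower. These were the 3 hydroxylase genes, but *CYP81F2* was tested only through its 21w libraries, which leaves 2 of the other 7 genes to be read against these shares. *CYP81F1* was higher by 1.51 ± 0.25 on the log2 scale (edgeR adjusted p = 0.000377), with no overlap. *CYP81F3* was higher by 1.22 ± 0.21 (adjusted p = 0.000741), its groups overlapped, and without 21w replicate 3 the difference was just under 2-fold and was not called. *CYP81F2* was at least 9.38-fold higher, given as a description. *CYP79B2* (0.69 ± 0.39, adjusted p = 0.270) and *CYP83B1* (-0.09 ± 0.26, adjusted p = 0.920) were not called.

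Of the regulators, *MYB34* was at 0 in all 16w libraries. It was measured at 3.80, 5.37 and 5.32 CPM at 0w, 4.83, 9.01 and 6.91 CPM at 4w, 4.05, 7.66 and 5.23 CPM at 8w, and 5.04, 5.20 and 3.70 CPM at 12w. The 21w libraries gave 1.55, 0 and 2.05 CPM and so lay below those of 0w, 4w, 8w and 12w. At 16w the level was at least 29.5-fold lower than at 0w (edgeR adjusted p = 2.15e-05) and at least 42.2-fold lower than at 4w (adjusted p = 0.000146), and both calls held in all alternatives run. At 21w the log2 fold change of -2.00 ± 0.82 was not called (adjusted p = 0.0808), while DESeq2 (adjusted p = 0.0025) and the fit without 21w replicate 2 (-1.42, adjusted p = 0.0173) called it lower. In all 3 libraries of 16w, 779 tested genes (4.03%) were at 0, and 46 of them had a mean of at least 1 CPM in each other group; the part of failed estimates in these zeros was not tested. The same 16w libraries gave *CYP79B2* its highest group mean, 60.2 CPM.

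*MYB51* was called in none of the comparisons. The 0w libraries gave 0, 9.17 and 6.89 CPM and so differed widely. The cold libraries lay between 3.95 and 11.1 CPM, highest at 16w with 11.1, 9.55 and 9.99 CPM. The log2 fold change against 0w there was 0.93 ± 0.83 (n = 3 per group, edgeR adjusted p = 0.419). From 4w to 16w, 2 of the 8 genes were called higher and 1 lower, against 0.926% and 1.75% of all tested genes, namely *CYP79B2* and *CYP81F3*, and *MYB34*, as given above.

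**Figure D2:**
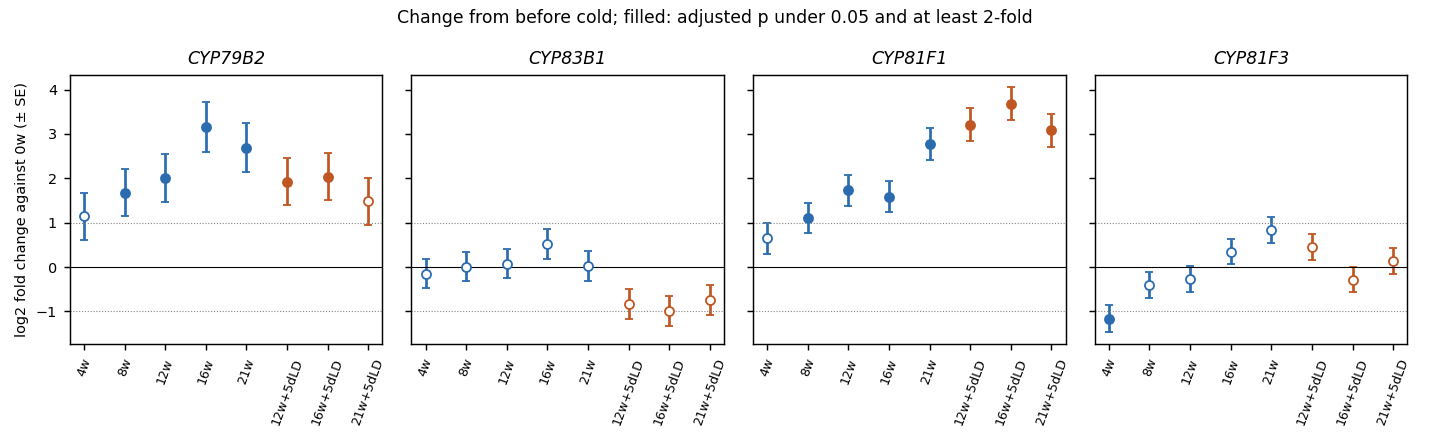
log2 fold change against 0w (y axis, ± SE from edgeR, 3 libraries per group) in each cold group and each group returned to LD (x axis) for the 4 genes above 0 in all libraries, with filled points for called changes and dotted lines at 2-fold. *CYP79B2* peaked at 3.15 at 16w, *CYP81F1* reached 2.78 at 21w and 3.69 at 16w+5dLD, and no point of *CYP83B1* was called.

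After return to LD, *CYP81F1* was called higher in the stems from 12w and 16w, and *CYP83B1* was called lower in those from 16w. Against the end of cold, 1 of the 8 genes was higher and 0 lower at 12w+5dLD (5.77% and 4.88% of all tested genes), and 2 were higher and 1 lower at 16w+5dLD (6.83% and 4.56%). For 21w+5dLD edgeR called 0 of the 8, in a comparison where 0.393% of all tested genes were called. There 5 of the 8 had an unadjusted p under 0.05, among them *CYP81F2*, which was tested only through its 21w libraries. The share of all tested genes with such a p is not given here, so this count has no measure beside it. DESeq2 called 1 of the 8, *MYB34*, in a comparison where it called 641 of 19054 genes.

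*CYP81F1* was measured at 100.2, 108 and 80.9 CPM at 12w+5dLD, 158, 172 and 73.6 CPM at 16w+5dLD, and 132, 83.2 and 51.0 CPM at 21w+5dLD. The returned libraries lay above those of the end of cold after 12 and 16 weeks and overlapped with them after 21 weeks. The log2 change on return was 1.47 ± 0.35 from 12w (edgeR adjusted p = 0.00364), 2.10 ± 0.35 from 16w (adjusted p = 0.000283) and 0.31 ± 0.34 from 21w (adjusted p = 0.739), with n = 3 per group. Without 21w+5dLD replicate 3 the last was 0.58 ± 0.34 (adjusted p = 0.29).

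*CYP83B1* was measured at 36.0, 45.3 and 53.9 CPM at 12w+5dLD, 40.2, 37.4 and 44.0 CPM at 16w+5dLD, and 28.7, 23.9 and 91.0 CPM at 21w+5dLD. Apart from the library labelled 21w+5dLD replicate 3, at 91.0 CPM, the returned libraries lay below all those of 0w and of the cold. The log2 change on return was -0.92 ± 0.34 from 12w, just under 2-fold (edgeR adjusted p = 0.0497), and -1.51 ± 0.34 from 16w, which was called (adjusted p = 0.00266). From 21w it was -0.78 ± 0.33 (adjusted p = 0.235), and without 21w+5dLD replicate 3 it was -1.65 ± 0.22 and was called (adjusted p = 5.51e-05). Without 12w replicate 1 the change from 12w was -1.13 and was called (adjusted p = 0.0318).

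*CYP81F3* differed in direction between the returns from 12w and 16w, though neither change was called. It was measured at 17.7, 23.6 and 24.9 CPM at 12w+5dLD, above the 12w libraries, and at 13.3, 13.3 and 13.2 CPM at 16w+5dLD, below the 16w libraries. The 21w+5dLD libraries gave 12.5, 14.9 and 25.5 CPM. The log2 changes on return were 0.72 ± 0.29 from 12w (edgeR adjusted p = 0.0766), -0.63 ± 0.29 from 16w (adjusted p = 0.119) and -0.71 ± 0.29 from 21w (adjusted p = 0.214). Without 21w+5dLD replicate 3 the last was -1.08 ± 0.30 and was called lower (adjusted p = 0.0204).

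*MYB34* was back at 3.27, 3.11 and 3.46 CPM at 16w+5dLD, at least 20.0-fold higher than at 16w (edgeR adjusted p = 0.000123). It was measured at 6.82, 5.32 and 4.39 CPM at 12w+5dLD and 5.58, 4.90 and 2.30 CPM at 21w+5dLD. The 21w+5dLD libraries lay above those of 21w, with a log2 change of 1.82 ± 0.82 that edgeR did not call (adjusted p = 0.262) and DESeq2 did (adjusted p = 0.0276). *MYB51* ranged from 3.90 to 8.35 CPM in the 9 returned libraries and *CYP79B3* from 0 to 6.71 CPM. *CYP81F2* was at 0 in all of them.

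*CYP79B2* was measured at 12.7, 27.3 and 37.1 CPM at 12w+5dLD, 19.7, 36.0 and 27.7 CPM at 16w+5dLD, and 17.2, 15.4 and 24.0 CPM at 21w+5dLD. All 9 returned libraries lay above those of 0w, and those of 21w+5dLD lay below those of 21w. The log2 change on return was -0.09 ± 0.52 from 12w (edgeR adjusted p = 0.945), -1.11 ± 0.52 from 16w (adjusted p = 0.124) and -1.21 ± 0.52 from 21w (adjusted p = 0.237), and none of these was called.

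Against 0w, returned stems held more *CYP81F1* and, after 12w and 16w, more *CYP79B2*. In the 12w+5dLD stems 2 of the 8 genes were higher and 0 lower (3.24% and 3.64% of all tested genes), in the 16w+5dLD stems 2 and 0 (4.20% and 3.54%), and in the 21w+5dLD stems 1 and 0 (3.69% and 4.04%). *CYP81F1* was higher by 3.21 ± 0.37 (12w+5dLD), 3.69 ± 0.38 (16w+5dLD) and 3.09 ± 0.37 (21w+5dLD) on the log2 scale (edgeR adjusted p = 8.15e-06, 2.04e-06 and 1.0e-05), the last being 3.36 without 21w+5dLD replicate 3. *CYP79B2* was higher by 1.93 ± 0.54 at 12w+5dLD (adjusted p = 0.0177) and 2.04 ± 0.54 at 16w+5dLD (adjusted p = 0.012). At 21w+5dLD its difference of 1.48 ± 0.53 was not called (adjusted p = 0.0582), but was in DESeq2 (adjusted p = 0.0195) and in edgeR without 0w replicate 3 (1.90, adjusted p = 0.0423).

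The calls of *CYP79B2* against 0w depended on single libraries. That at 12w+5dLD ended on leaving out replicate 1 or 2 of 0w or replicate 3 of 12w+5dLD and in a fit of only the groups compared (edgeR adjusted p = 0.0608 to 0.0903), and that at 16w+5dLD without 0w replicate 1 or 16w+5dLD replicate 2 (adjusted p = 0.0681 and 0.051). *CYP83B1* differed from 0w by -0.99 to -0.75 on the log2 scale and was not called, since the one adjusted p below 0.05 (16w+5dLD, 0.0485) came with a change under 2-fold, but without 21w+5dLD replicate 3 it was called lower at 21w+5dLD (-1.62 ± 0.22, adjusted p = 4.34e-05).

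Between 21w+5dLD and the mean of 12w+5dLD and 16w+5dLD, edgeR and DESeq2 called 0 of the 8 genes. None of the 8 had an unadjusted p under 0.05, and *CYP81F2*, at 0 in all these libraries, could not be called. Over all tested genes edgeR called 1.91% and DESeq2 791 of 19054. Among the 4 genes above 0 in all libraries the log2 differences ran from -0.50 ± 0.46 for *CYP79B2* to 0.16 ± 0.29 for *CYP83B1*. Without 21w+5dLD replicate 3 that of *CYP83B1* was -0.70 ± 0.19 (edgeR adjusted p = 0.0586).

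The changes on return were also compared with each other. The signed log2 change after 21w was called higher than the mean of those after 12w and 16w for 0 of the 8 genes and lower for 1 (1.24% and 0.708% of all tested genes). That gene was *CYP81F1*, with a difference of -1.48 ± 0.42 (edgeR adjusted p = 0.0499), and the call was lost without each of 14 of the 18 libraries involved, 21w+5dLD replicate 3 among them (-1.20 ± 0.42, adjusted p = 0.145). Between the returns from 16w and 12w edgeR called 0 of the 8 genes, against 0.0207% of all tested genes, with 2 at an unadjusted p under 0.05, *CYP81F3* (-1.35 ± 0.41, adjusted p = 0.292) and *MYB34* (adjusted p = 0.0513). DESeq2 called both.

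Of the genes listed for the steps shared with aliphatic glucosinolates, 3 were called lower in each cold group, namely *GGP1*, *UGT74B1* and *SOT16*. *SOT16* is in this list by its step, though its product acts on indolic compounds, so the list is not of shared genes alone. Of 6 measured, edgeR called 4 lower in the 4w stems, 3 in those of 8w, 12w and 16w, and 5 in those of 21w, and none higher, where 7.14% to 10.2% of all tested genes were called lower. The gene called in no cold group was *GSTF10*, at 580 to 1687 CPM in the 4w libraries against 636 to 720.3 CPM at 0w, with counts equal to those of its neighbour *GSTF9* in 3 libraries; it is named after its values were seen. *GGP1*, which cleaves the glutathione conjugate, went from 467 to 619 CPM at 0w to 37.3 to 65.0 CPM at 4w, a log2 change of -3.24 ± 0.32 (adjusted p = 9.48e-07). *UGT74B1*, which adds the glucose, went from 620.5 to 794 CPM at 0w to 58.3 to 116 CPM at 21w, a log2 change of -2.88 (adjusted p = 0.000645). It had counts identical to those of a neighbouring locus in 5 libraries. Its call at 12w was lost without 0w replicate 2 or 12w replicate 1 (adjusted p = 0.0568 and 0.099). *SOT16*, which sulfates indolic desulfoglucosinolates, went from 17.1 to 25.5 CPM at 0w to 1.60 to 3.09 CPM at 21w, a change of -3.09 ± 0.38 (adjusted p = 9.32e-06).

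Tryptophan supply was lower in part. In the cold groups 7.14% to 10.2% of all tested genes were called lower than at 0w. Of 6 genes measured, *ASB1*, a subunit of anthranilate synthase, and *PAT1*, which acts next, were called lower in each cold group up to 16w, with changes of -1.34 ± 0.23 and -1.86 ± 0.26 on the log2 scale at 4w (edgeR adjusted p = 0.00024 and 2.64e-05). *PAT1* was also lower at 21w and was called higher on return from 12w (adjusted p = 0.00157). Without 0w replicate 2 the changes of *ASB1* at 12w and 16w were -0.87 and -0.74 and were not called, and the same held without 12w replicate 1 (-0.97) and without 16w replicate 3 (-0.91). The other 4 genes were not called in the cold.

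In the cold groups 5.14% to 7.07% of all tested genes were called higher than at 0w. Of 7 genes for hydrolysis and transport, 1 was called higher in every cold group. This was *PYK10*, a myrosinase of endoplasmic reticulum bodies, at 0, 0 and 10.98 CPM at 0w, 16.9 to 48.3 CPM at 4w and 133 to 217 CPM in the libraries of 8w to 21w. Its log2 fold change was 5.54 ± 1.17 at 8w (edgeR adjusted p = 0.00107), and in fits of only the groups compared all 5 calls were lost (adjusted p = 0.0833 to 0.304), and that at 4w also without any one of 0w replicates 1 and 2 and 4w replicates 1 and 2 (adjusted p = 0.0532 to 0.0958). *GTR2*, a glucosinolate importer, went from 258 to 311 CPM at 0w to 27.7 to 41.2 CPM at 8w (-2.97 ± 0.27, adjusted p = 3.15e-07) and rose on return by 2.04 ± 0.26 from 12w (adjusted p = 2.37e-05) and by 1.43 ± 0.26 from 16w (adjusted p = 0.000475). *TGG2*, a classical myrosinase, went from 88.6 to 120.01 CPM at 0w to 0, 5.90 and 0 CPM at 21w (adjusted p = 0.0204), a call lost without 21w replicate 1 or 3 and in a fit of only the groups compared (adjusted p = 0.0603 to 0.0736).

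Among 4 upstream regulators, *MYC4*, a partner of the MYB factors, went from 28.0 to 41.8 CPM at 0w to 87.8 to 107 CPM at 21w (1.47 ± 0.14 on the log2 scale, edgeR adjusted p = 9.06e-07) and was called higher from 12w on. *MYC2* was higher at 21w (1.17 ± 0.31, adjusted p = 0.00843) and in all 3 returned groups (1.27 to 1.36), where the call at 16w+5dLD was lost without its replicate 2 and in a fit of only the groups compared (adjusted p = 0.0622 and 0.0718). *OBP2*, a DOF factor, was at 0 in all 3 libraries of 16w+5dLD, at least 68.0-fold lower than at 16w (adjusted p = 0.0428), a call lost without any one of those 6 libraries. It was also at 0 in 7 other libraries, 2 of 3 in both 4w and 8w and 1 of 3 in each of 21w, 12w+5dLD and 21w+5dLD, and was at 4.84 to 17.7 CPM in the rest, and whether these zeros are failed estimates was not tested. Of 2 nitrilase genes, *NIT3* was higher at 16w by 1.12 ± 0.15 on the log2 scale (adjusted p = 8.29e-06) and *NIT2* at 12w+5dLD by 1.12 ± 0.28 against 0w (adjusted p = 0.00864). Against 0w, 5.14% to 7.07% of all tested genes were called higher at 12w to 21w, and 3.24% to 4.20% in the returned groups. No gene of the indole methyltransferase list was analysed here.

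**Figure D3:**
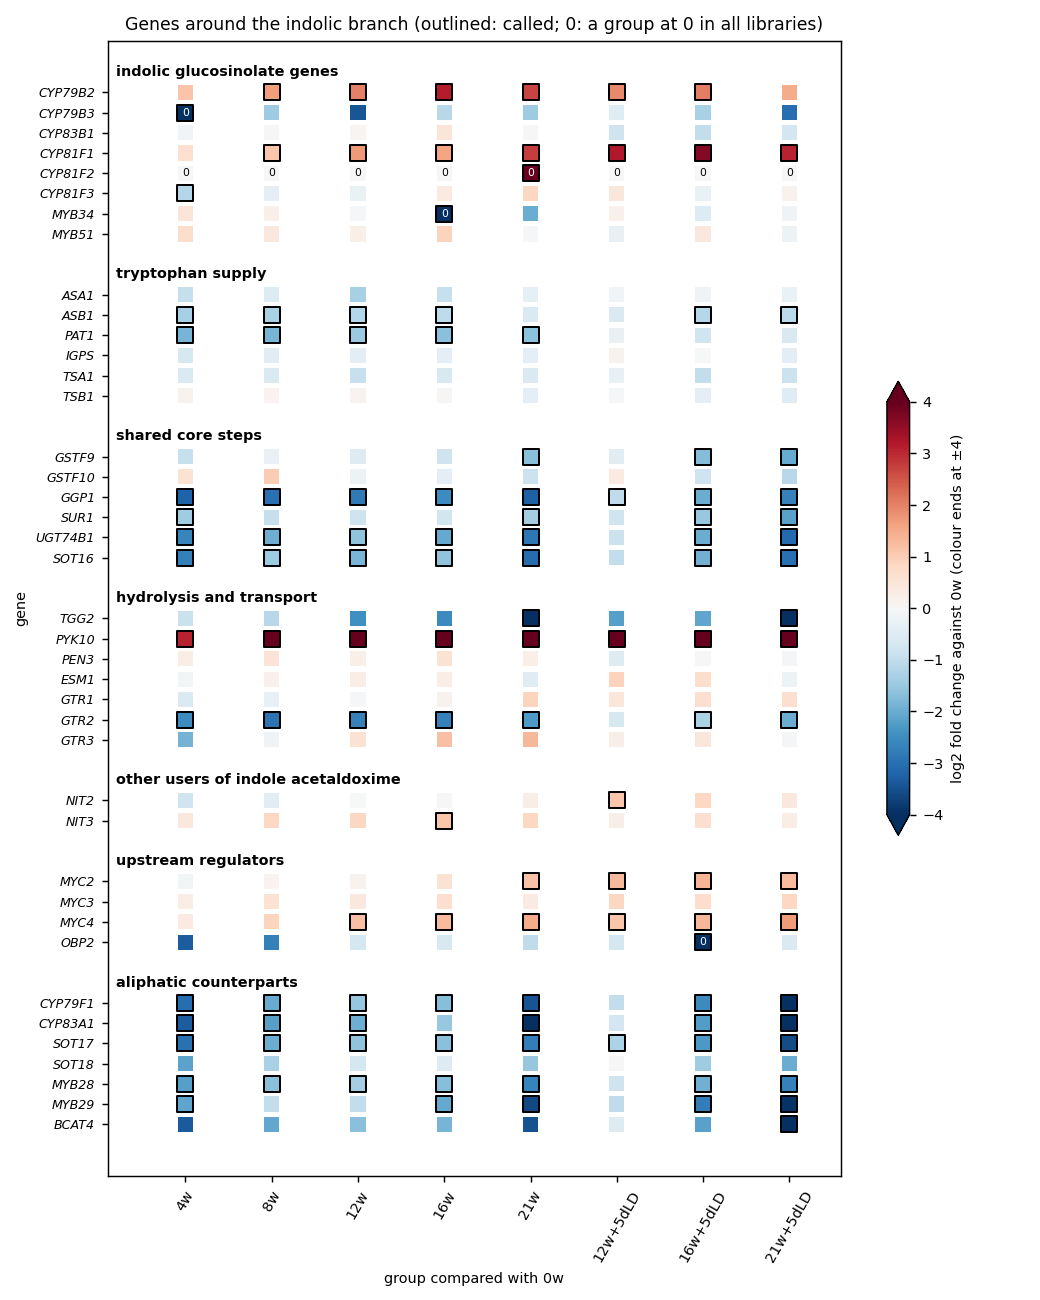
log2 fold change against 0w (colour, ending at 4 in either direction) of each gene of the branch and of the lists around it (rows) in the 5 cold and 3 returned groups (columns), with called changes outlined and a 0 where a group was at 0 in all libraries, for which the colour is no measure of size. *CYP79B2* and *CYP81F1* were called higher in most columns, while the shared steps and the aliphatic counterparts held only called changes to lower levels. The list of shared steps includes *SOT16*, whose product acts on indolic compounds.

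Of the aliphatic counterparts, 4 to 5 of 7 fell in each cold group. edgeR called 5 lower in the 4w stems, 4 in those of 8w, 12w and 16w, and 5 in those of 21w, and none higher than at 0w, where 7.14% to 10.2% of all tested genes were called lower. *CYP79F1*, which forms aliphatic aldoximes, went from 260.1 to 419 CPM at 0w to 28.6 to 35.4 CPM at 21w (log2 change -3.45 ± 0.52, adjusted p = 6.73e-05). *CYP83A1*, which oxidises them, went from 538 to 1303 CPM at 0w to 38.7 to 76.8 CPM at 21w (-4.02 ± 0.70, adjusted p = 0.000267), and had counts identical to those of a neighbouring locus in 4 libraries. *MYB29*, an activator of aliphatic genes, went from 84.8 to 141 CPM at 0w to 8.00 to 12.1 CPM at 21w (-3.60 ± 0.43, adjusted p = 6.35e-06). Some calls before 21w rested on single libraries. That of *CYP83A1* at 8w was lost without 0w replicate 1 or 8w replicate 1 or 2 (edgeR adjusted p = 0.0522 to 0.0625). At 12w it was lost without 0w replicate 1 or 12w replicate 1 or 2 (adjusted p = 0.051 to 0.0945). The call of *CYP79F1* at 12w was lost without 0w replicate 2 or 12w replicate 1 (adjusted p = 0.0531 and 0.0845). At 16w it was lost without 16w replicate 3 (adjusted p = 0.0545).

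Within each library, the log2 ratio of *CYP79B2* to *CYP79F1* (CPM + 1 each) was -6.34, -5.81 and -4.55 at 0w and -2.48 to 1.16 in the 15 cold libraries. That of *CYP83B1* to *CYP83A1* was -4.14, -3.16 and -2.81 at 0w and -2.24 to 0.98 in the cold. No cold library overlapped with those of 0w in either ratio. The mean ratio was higher in the cold by 4.34 and by 2.71 on the log2 scale. *CYP83B1* itself differed from 0w by -0.15 to 0.52 in the cold groups and was not called. The rise of the second ratio is therefore mostly the lower level of *CYP83A1*, which had counts identical to those of a neighbouring locus in 4 libraries. Both ratios were chosen after the levels had been seen and are given as descriptions, with no test. At 12w+5dLD the ratio of *CYP83B1* to *CYP83A1* was within the 0w range, at -4.09, -3.37 and -3.19, and that of *CYP79B2* to *CYP79F1* was above it, at -3.05 to -2.56. The library labelled 16w+5dLD replicate 2 lay above the others of its group in both ratios. Its value was 1.08 against -2.10 and -1.39 for *CYP79B2* to *CYP79F1*, and -0.10 against -2.26 and -2.88 for *CYP83B1* to *CYP83A1*.

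**Figure D4:**
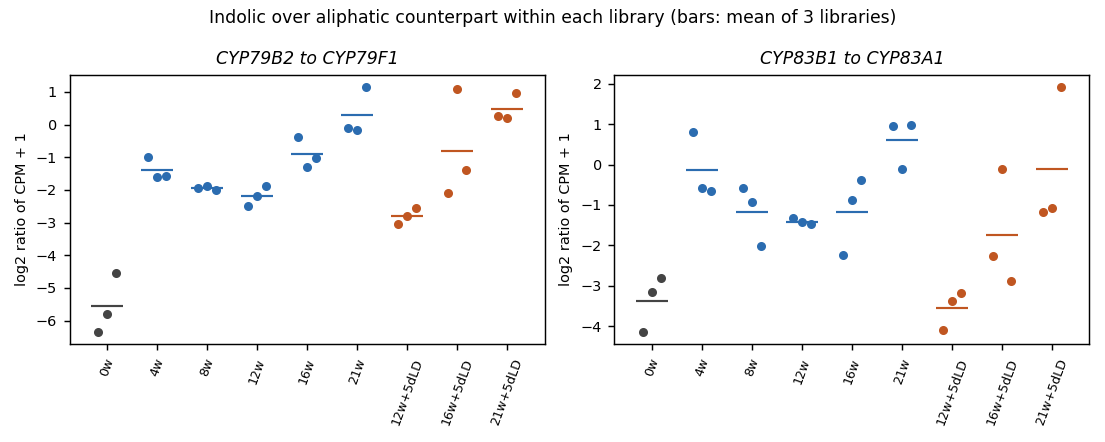
log2 ratio of CPM + 1 (y axis) of *CYP79B2* to *CYP79F1* (left) and of *CYP83B1* to *CYP83A1* (right) in each library (points) by group (x axis), with the mean of 3 libraries as a bar. All cold libraries lay above the 0w libraries, whose highest values were -4.55 and -2.81.

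Over the 27 libraries the level of *CYP83B1* was most like those of the homologs of AT5G01200 (Pearson r = 0.915 of log2(CPM + 1)), AT3G51895 (0.910), AT5G27930 (0.894), AT1G35220 (0.891) and AT1G55490 (0.881). For *MYB34* they were AT3G50760 (0.859), AT2G38110 (0.820), AT1G27950 (0.798), AT4G25240 (0.780) and AT4G36240 (0.780). These are descriptions over libraries that share groups and scaling. With group means in place of libraries, 2 of the 5 genes stayed among the 5 most alike for *CYP83B1* and 1 of 5 for *MYB34*.

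Cell type markers moved in the same libraries. *LHCB1.3*, a marker of green cortex, was higher from 4w to 16w by 1.53 to 2.31 on the log2 scale, and *CESA8*, a xylem marker, was lower in the 5 cold groups, with log2 changes of -5.31 to -2.49. Over all 9 stem markers the summed level was 7198 to 7906 CPM per library at 0w, 25051 to 27979 CPM at 4w and 5825 to 12376 CPM at 21w. Most of this sum was *LHCB1.3*, at 5095 to 5262 CPM at 0w and 24517 to 27370 CPM at 4w. The summed xylem level went from 1812 to 2326 CPM at 0w to 266 to 390 CPM at 4w. That of phloem went from 260 to 295 CPM to 179 to 248 CPM. Over the 9 markers the median log2 fold change at 4w was -0.65. *ATML1*, an epidermis marker, was at 0 in all libraries of 12w and 16w+5dLD. The part of these markers in the changes of the indolic genes was not tested.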

How the data were processed

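PolyA RNA of 27 stem libraries was sequenced as single reads with a strand-marking kit. The authors aligned reads with HISAT2, assembled and quantified with StringTie, and derived gene counts with its prepDE script. Tool versions, genome build and strand setting are not given in the sources used. The deposited counts are whole numbers per gene derived from coverage, so that 1 count is not 1 read. The 18 comparison tables of the authors hold fold changes and p-values and were read only to pair gene IDs, which filled 1 homolog. Columns were matched to samples by name, with 0 left over.

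Groups came from the sample titles, with 3 biological replicates each. Counts were fitted in edgeR 4.0.16 (R 4.3.3) by quasi-likelihood with TMM scaling, filterByExpr and a mean for each of the 9 groups (18 residual degrees of freedom), and contrasts were adjusted by Benjamini-Hochberg over 19337 genes. The call rule is that of the authors, who used DESeq2. Standard errors are the log2 fold change over the root of F and are approximate. Where a group was at 0, a floor of 3 counts per library gave a bound, which covers counting error only. The fit was also run on simulated counts with known changes and no group set at 0. Their dispersion, the spread beyond counting error, was lower than the common dispersion of 0.4175 in these data. That run therefore cannot show how calls hold at the spread seen here.

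Named were all 8 genes, and from each list around them up to 3 called genes per direction and comparison with groups that do not overlap and a higher mean of at least 5 CPM, with *UGT74B1* and *CYP83A1* always named. *GTR1*, *ESM1*, *SOT17*, *MYB28* and *BCAT4* also met this rule and are not described above. Of these, *SOT17*, an aliphatic counterpart, was called higher at 16w than at 4w, a call lost without any one of the 4w libraries. Markers lie outside this rule. The members, lists and tests were chosen with earlier results of these data known. Alternatives were DESeq2 1.42.0, other scalings and filters, adjusted p alone, fits of only the groups compared, a replicate block and leaving out each library in turn. The comparison of the returns from 16w and 12w and both ratios were chosen after seeing the data. No sequences were analysed here.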

Additional observations from a re-analysis of the deposited data

Results flagged for a closer look

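The change of *CYP81F1* on return to LD was smaller after 21w than in the mean of the returns from 12w and 16w, by -1.48 on the log2 scale (SE 0.42, edgeR adjusted p = 0.0499), and is listed because a test of the difference itself passed the threshold. The call was lost without each of 14 of the 18 libraries involved.

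*CYP81F3* changed by 0.72 on the log2 scale at 12w+5dLD against 12w and by -0.63 at 16w+5dLD against 16w, with the 3 returned libraries all above those of 12w and all below those of 16w. The test of this difference, added after it was seen, gave -1.35 ± 0.41 (edgeR adjusted p = 0.292), and DESeq2 called it (adjusted p = 0.042).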

How the results depend on the processing

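None of the 28 called changes of the 8 genes, which include 2 of *CYP81F2*, reversed in the alternatives run. Those of *CYP81F2*, *MYB34* and *CYP79B3* could not reverse, since a group compared was at 0 in all its libraries. Without 1 library, 10 of them were lost at least once, and 6 in other alternatives. Leaving out 1 library gave 1 to 2 called genes for 4w against 0w, 0 to 2 for 8w, 1 to 2 for each returned group against 0w, 1 to 3 for 21w against the shorter stays, 1 to 2 for 12w+5dLD against 12w, 0 to 2 for 21w+5dLD against 21w, and 0 to 1 for both comparisons of returns. Fits of only the groups compared called 1 gene for 12w against 0w, 1 for 12w+5dLD against 0w, 0 for the return from 21w against the others and 1 for that from 16w against 12w. DESeq2 called 1 for 21w+5dLD against 21w, 2 for 21w+5dLD against 0w and 2 for the return from 16w against 12w. Adjusted p alone called 2 for 12w+5dLD against 12w, and no filter on low counts 0 for the return from 21w. The causes were not tested.

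Libraries with the same replicate number did not deviate together (r = -0.0697 to 0.0916 over 108 pairs), so the numbers were not taken as pairs. With the replicate block, *CYP79B2* was also called at 4w, at 21w+5dLD against 0w, where 2 genes were then called, and at 16w+5dLD against 16w (edgeR adjusted p = 0.0478, 0.0214 and 0.0397). Over all genes the block called 13 in place of 76 for 21w+5dLD against 21w.

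Over all tested genes DESeq2 called 1117 in place of 517 for 16w against 4w, 641 in place of 76 for 21w+5dLD against 21w, 791 in place of 369 for 21w+5dLD against the other returned groups, 1048 in place of 376 for the return from 21w and 458 in place of 4 for that from 16w. Fits of only the groups compared gave 22, 40, 122 and 18 in the last 4 of these, and 912 in place of 1496 for 21w+5dLD against 0w. For 21w+5dLD against 21w, no filter on low counts gave 36, the fit without 21w+5dLD replicate 3 gave 1143 and those without any one of the other 5 libraries 11 to 36, and upper-quartile scaling gave 68 higher and 36 lower in place of 42 and 34. Without 21w+5dLD replicate 3 the comparison with the other returned groups called 207 and that of the return from 21w 200, without 21w+5dLD replicate 1 the latter called 652, without 21w replicate 1 it called 158 and 21w against the shorter stays 522 in place of 915, and without 4w replicate 3 16w against 4w called 327. Adjusted p alone gave 165 to 6980 in place of 76 to 3345, and 4 in both for the return from 16w. Among the members above 0 at 4w, the SE of the log2 change against 0w there ran from 0.30 for *CYP81F3* to 0.83 for *MYB51*.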
